A study of Mus musculus with 13 samples.

Results

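The 10 genes described here are those of the fatty acid receptor PPARalpha (Ppara), its coactivator PGC-1alpha (Ppargc1a) and 8 enzymes that break down fatty acids, namely Cpt1a, Cpt2, Acadm, Acadl, Hadha, Hadhb, Ehhadh and Acaa1b. They were chosen by name, with earlier results of these data known, and all 10 were found among the 18820 genes that had an array feature with exactly 1 gene symbol. Where a gene had several such features, the brightest one on average over 13 livers stood for it. The livers came from C57BL/6J mice. LiSel1lKO mice carried a Sel1l gene with exon 6 flanked by loxP sites together with Cre recombinase under the albumin promoter, which is active in hepatocytes and not in most other liver cells, and wildtype mice were the comparison. The labels do not say whether wildtype mice carried floxed alleles or Cre. There were 4 LiSel1lKO and 3 wildtype livers at 3 weeks of age, and 3 LiSel1lKO and 3 wildtype livers at 9 weeks. All mice were fasted for 5 to 6 hours in the morning before the livers were taken. Each liver was measured on 1 whole-transcript microarray, and values are log2 expression levels after robust multi-array averaging (RMA).

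PPARalpha is a nuclear receptor that binds fatty acids and, paired with a retinoid X receptor (RXR), switches on genes of fatty acid uptake, breakdown and ketone body formation in the fasting liver. PGC-1alpha binds it and other nuclear receptors and raises their activity. In beta-oxidation an acyl chain is shortened in repeated rounds of dehydrogenation, hydration, a further dehydrogenation and thiolysis, in mitochondria for most chains and in peroxisomes for very long and dicarboxylic ones. Sel1L is the adaptor of a ubiquitin ligase that removes misfolded proteins from the endoplasmic reticulum.

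Promoter windows of 5 of the genes are shown: a pair that shares its promoter region, 2 that hold a receptor half-site, and the most variable gene. All sequences are RefSeq windows of the mouse build GRCm38.p6, from 250 bases before to 50 bases after the transcription start, written 5′ to 3′ on the gene's own strand. Hadha and Hadhb, which encode the alpha and beta subunits of the mitochondrial trifunctional protein, stand head to head, and their start sites lie 273 bases apart. Their windows, chr5:30154931-30155230 on the minus strand and chr5:30155003-30155302 on the plus strand, overlap by 228 bases, which are printed in capitals.
Hadha: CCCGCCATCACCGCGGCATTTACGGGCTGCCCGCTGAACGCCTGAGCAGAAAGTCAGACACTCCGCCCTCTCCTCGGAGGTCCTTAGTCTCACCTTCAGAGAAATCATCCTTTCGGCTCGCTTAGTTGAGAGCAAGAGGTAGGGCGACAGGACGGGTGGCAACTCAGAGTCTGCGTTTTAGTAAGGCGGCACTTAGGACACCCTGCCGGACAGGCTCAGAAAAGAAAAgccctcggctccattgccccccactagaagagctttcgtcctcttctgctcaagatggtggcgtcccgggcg
Hadhb: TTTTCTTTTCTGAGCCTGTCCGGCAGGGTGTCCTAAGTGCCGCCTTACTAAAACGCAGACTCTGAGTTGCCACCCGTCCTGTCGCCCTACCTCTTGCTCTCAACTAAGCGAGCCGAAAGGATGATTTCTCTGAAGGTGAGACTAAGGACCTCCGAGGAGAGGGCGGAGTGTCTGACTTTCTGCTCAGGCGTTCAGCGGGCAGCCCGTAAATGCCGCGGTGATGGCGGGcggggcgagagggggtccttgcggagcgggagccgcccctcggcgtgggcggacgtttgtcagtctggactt
Nuclear receptors of the PPAR type bind repeats of the half-site AGGTCA. The half-site was searched on both strands of the 10 windows and occurred in 2 of them, against 16.3% of the 32851 RefSeq windows of the same length that were searched. The window of Cpt1a, chr19:3323051-3323350 on the plus strand, and that of Acadm, chr3:153944594-153944893 on the minus strand, carried it in its reverse form, which is in capitals. It began at position -94 from the start of Cpt1a and at position -249 for Acadm.
Cpt1a: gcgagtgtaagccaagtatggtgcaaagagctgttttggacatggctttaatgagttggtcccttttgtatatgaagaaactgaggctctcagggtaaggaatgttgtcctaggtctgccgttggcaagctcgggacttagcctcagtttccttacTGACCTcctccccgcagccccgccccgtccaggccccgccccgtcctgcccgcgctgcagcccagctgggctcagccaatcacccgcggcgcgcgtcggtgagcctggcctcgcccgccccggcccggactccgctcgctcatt
Acadm: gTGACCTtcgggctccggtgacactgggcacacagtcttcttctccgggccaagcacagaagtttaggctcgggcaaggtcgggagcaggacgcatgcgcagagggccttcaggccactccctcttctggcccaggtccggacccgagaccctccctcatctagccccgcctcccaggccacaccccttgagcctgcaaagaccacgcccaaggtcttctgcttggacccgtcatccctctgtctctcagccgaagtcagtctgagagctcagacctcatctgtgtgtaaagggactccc
The window of Ehhadh, the gene with the widest spread of levels among the 10, lies at chr16:21787785-21788084 on the minus strand and is shown without capitals because no half-site was found in it.
Ehhadh: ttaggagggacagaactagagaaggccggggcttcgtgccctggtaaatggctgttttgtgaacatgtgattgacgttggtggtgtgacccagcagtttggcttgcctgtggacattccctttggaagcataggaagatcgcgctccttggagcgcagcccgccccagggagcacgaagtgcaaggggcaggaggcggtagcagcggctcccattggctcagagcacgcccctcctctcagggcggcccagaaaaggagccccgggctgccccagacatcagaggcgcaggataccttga
The full repeat AGGTCANAGGTCA, again on both strands, was found in 0 of the 10 windows and in 13 of the 32851 windows (0.0396%). These letters describe the windows alone and say nothing of binding there or elsewhere.

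The array held 35556 features with medians between 3.72 and 3.81 log2 units per liver, and pairs of arrays correlated between 0.976 and 0.988 across features. Sel1l was lower in every LiSel1lKO liver than in every wildtype liver of its age, with 7.10 to 8.42 against 8.77 to 8.94 at 3 weeks, and 7.54 to 7.90 against 8.70 to 8.78 at 9 weeks. A transcript without the floxed exon can still hybridise to probes elsewhere in the gene. All 6 hepatocyte markers examined were bright in the livers, with means of 11.93 to 13.30. The adipocyte markers had means of 2.05 to 3.33 and the skeletal muscle markers of 1.96 to 3.81, near or below the array medians. LiSel1lKO replicates 3 and 4 at 3 weeks stood apart in the genes described here and also had the lowest Sel1l levels, 7.20 and 7.10. The Sel1l difference was -1.21 ± 0.26 (SE) at 3 weeks and -1.02 ± 0.28 at 9 weeks, and did not pass the test used below for all genes (limma adjusted p = 0.391 and 0.108). The labels name each sample the liver of a mouse and give no litter or pairing, and p values measure the spread between these livers only.

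All 10 genes ranked high among the genes on the array. Their means over the 13 livers reached from 7.79 for Ppargc1a, at percentile 88.9 of all genes, to 10.78 for Cpt1a, at percentile 99.0. The others averaged 9.10 (Cpt2), 9.44 (Hadhb), 9.73 (Ppara), 9.93 (Acadl), 10.43 (Acaa1b) and 10.70 to 10.73 (Ehhadh, Hadha and Acadm). Probe sets differ in their response, so these levels set no order of transcript amounts between genes. The SD over the 13 livers had a median of 0.22 for the 10 genes and 0.18 over all genes, and was largest for Ehhadh (0.60) and Ppargc1a (0.50) and smallest for Hadha (0.12). Between the lowest and the highest liver, Ehhadh differed 3.74-fold and Ppargc1a 3.00-fold, against 1.33-fold for Hadha.

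The 2 regulators are given first. Ppara stood at 9.82, 9.99, 8.98 and 9.32 in the LiSel1lKO livers at 3 weeks, against 9.77, 9.72 and 10.01 in the wildtype livers. At 9 weeks it stood at 9.89, 9.69 and 9.72 in LiSel1lKO livers, against 9.86, 9.64 and 10.08 in wildtype livers. Apart from LiSel1lKO replicates 3 and 4 at 3 weeks, all livers lay within 9.64 and 10.08, and the genotypes overlapped at both ages. Ppargc1a stood at 7.99, 8.32, 7.27 and 7.76 in LiSel1lKO livers at 3 weeks, against 7.26, 8.23 and 8.74 in wildtype livers. At 9 weeks its levels were 7.77, 8.26 and 7.79 in LiSel1lKO livers and 7.45, 7.15 and 7.31 in wildtype livers. The 9-week genotypes did not overlap, and the 3-week wildtype livers spanned nearly the whole range of the gene. A second feature of Ppargc1a was dimmer (mean 5.60) and lay below the one used here by 1.91 to 2.61.

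The carnitine shuttle carries long-chain acyl groups into mitochondria. Cpt1a, the enzyme of the outer membrane that sets the pace of this entry, stood at 11.01, 10.78, 10.45 and 10.49 in 3-week LiSel1lKO livers, against 11.03, 10.79 and 11.02 in wildtype livers. At 9 weeks it was at 10.97, 10.78 and 10.88 in LiSel1lKO livers and at 10.62, 10.44 and 10.91 in wildtype livers. The genotypes overlapped at both ages, with LiSel1lKO replicates 3 and 4 lowest at 3 weeks and 2 of the wildtype livers lowest at 9 weeks. Cpt2, the partner enzyme of the inner membrane, stood at 8.90 to 9.08 in LiSel1lKO and 9.03 to 9.33 in wildtype livers at 3 weeks. At 9 weeks it stood at 8.98 to 9.41 in LiSel1lKO and 8.76 to 9.34 in wildtype livers.

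The acyl-CoA dehydrogenases Acadm (medium chains) and Acadl (long chains) take the first step of each mitochondrial round. Acadm stood at 10.77, 10.91, 10.74 and 10.97 in 3-week LiSel1lKO livers, against 10.62, 10.72 and 10.86 in wildtype livers, and the groups overlapped. At 9 weeks its levels were 10.91, 10.78 and 10.76 in LiSel1lKO livers and 10.43, 10.24 and 10.77 in wildtype livers, where only wildtype replicate 3 reached the LiSel1lKO range. Acadl lay between 9.79 and 10.15 in LiSel1lKO and between 10.03 and 10.07 in wildtype livers at 3 weeks, and between 9.71 and 9.93 in LiSel1lKO and 9.70 and 9.81 in wildtype livers at 9 weeks. All 3 wildtype livers of 9 weeks lay below all 3 of 3 weeks.

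The trifunctional protein carries out the remaining steps for long chains, hydration and dehydrogenation on the alpha subunit (Hadha) and thiolysis on the beta subunit (Hadhb). Hadhb stood at 9.56, 9.53, 9.04 and 9.25 in LiSel1lKO livers at 3 weeks, against 9.76, 9.80 and 9.72 in wildtype livers. At 9 weeks it stood at 9.47, 9.28 and 9.44 in LiSel1lKO livers and at 9.28, 9.22 and 9.40 in wildtype livers. The 3 young wildtype livers thus stood above all 10 other livers. A second feature of Hadhb read 0.11 to 0.14 lower than this one in every liver, so that it adds no independent view. Hadha, whose promoter window overlaps that of Hadhb, varied less, with 10.45 to 10.81 in LiSel1lKO and 10.78 to 10.82 in wildtype livers at 3 weeks, and 10.57 to 10.86 in LiSel1lKO and 10.63 to 10.73 in wildtype livers at 9 weeks.

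The peroxisomal enzymes come last. Ehhadh, the bifunctional enzyme that hydrates and dehydrogenates acyl chains in peroxisomes, stood at 10.72, 10.73, 9.96 and 10.43 in 3-week LiSel1lKO livers, against 10.57, 11.00 and 11.56 in wildtype livers. At 9 weeks it stood at 10.60, 11.32 and 11.56 in LiSel1lKO livers, against 9.98, 9.66 and 10.96 in wildtype livers. The genotypes overlapped at both ages, although every LiSel1lKO liver lay below the wildtype mean at 3 weeks and above it at 9 weeks. Acaa1b, a peroxisomal thiolase, stood at 10.23, 10.49, 9.81 and 10.12 in 3-week LiSel1lKO livers, against 10.50, 10.68 and 10.71 in wildtype livers. At 9 weeks it was at 10.31, 10.37 and 10.59 in LiSel1lKO livers and at 10.52, 10.46 and 10.75 in wildtype livers. At 3 weeks the groups just failed to overlap. Acaa1b has a near-identical copy, Acaa1a, whose own feature read 7.38 to 8.09, and probes may not separate the copies, so that values of Acaa1b are uncertain.

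**Figure D1:**
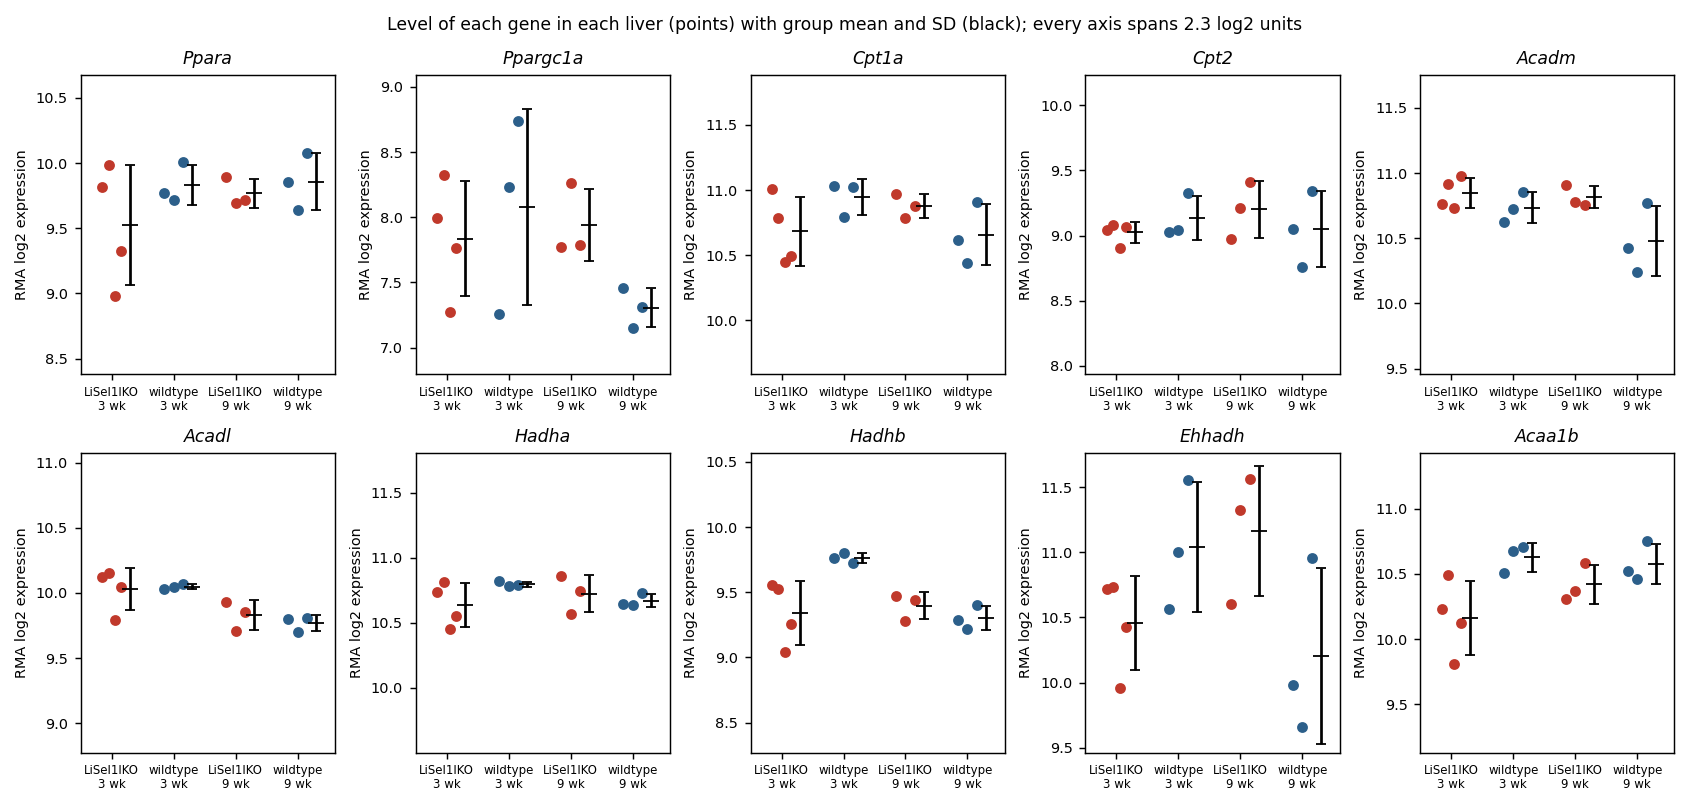
RMA log2 expression (y axis, each panel spanning 2.3 log2 units) of the 10 genes in LiSel1lKO (red) and wildtype (blue) livers at 3 and 9 weeks, with 1 point per liver and the group mean and SD in black beside it. Hadhb is highest in the 3 wildtype livers of 3 weeks, Ppargc1a has its lowest mean in 9-week wildtype livers, and Ehhadh has the widest spread.

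In the order of the 4 group means, most neighbours could not be separated. Of the 30 gaps between neighbouring group means, 24 were within 1 pooled within-group SD of the gene, and 29 joined groups whose livers overlapped. The exception was Hadhb, where the 3-week wildtype mean of 9.76 ± 0.04 (SD, n = 3) stood 0.36 above the next group, the 9-week LiSel1lKO livers at 9.40 ± 0.10 (n = 3). Ehhadh was ordered from 11.16 ± 0.50 in 9-week LiSel1lKO livers through 11.04 ± 0.50 in 3-week wildtype and 10.46 ± 0.36 (n = 4) in 3-week LiSel1lKO livers to 10.20 ± 0.68 in 9-week wildtype livers. Wildtype livers of 9 weeks had the lowest mean in 6 of the 10 genes: Ppargc1a, Cpt1a, Acadm, Acadl, Hadhb and Ehhadh.

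The first comparison asked what loss of Sel1L changed in young liver. At 3 weeks 9 of the 10 genes were lower on average in LiSel1lKO livers, with a median log2 difference of -0.25, against -0.002 over all genes, of which 50.6% lay below 0. The peroxisomal Ehhadh (-0.58 ± 0.35, SE; 0.669-fold) and Acaa1b (-0.47 ± 0.15; 0.723-fold) and the trifunctional subunit Hadhb (-0.42 ± 0.12; 0.749-fold) showed the largest differences, and Acadm alone lay above 0 (0.11 ± 0.12). None of the 10 passed the test (limma across all 35556 features, Benjamini-Hochberg adjusted p under 0.05), and their smallest adjusted p was 0.472, for Hadhb. The share of all features called was 0%, although 2634 features had an unadjusted p under 0.05. Of the 10 genes, 2 had an unadjusted p under 0.05, against 7.36% of all genes. Hadhb and Acaa1b were lower in every LiSel1lKO liver than in every wildtype liver, which held for 3.79% of all genes.

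The intervals show what the 7 livers of 3 weeks could and could not resolve. The 95% intervals were -0.68 to -0.15 for Hadhb, -0.79 to -0.15 for Acaa1b and -1.35 to 0.19 for Ehhadh. For Acadl, whose difference was -0.02 ± 0.09, the interval of -0.22 to 0.19 bounds any difference more tightly, whereas for Ppargc1a (-0.24 ± 0.32) it ran from -0.94 to 0.46. Ppara (-0.31 ± 0.21), Cpt1a (-0.26 ± 0.15), Hadha (-0.16 ± 0.10) and Cpt2 (-0.11 ± 0.14) had intervals on both sides of 0. Within the arrays that carried position number 5 in their descriptions, the difference was -0.35 for Hadhb and -0.30 for Acaa1b, and within number 7, which held 1 wildtype liver of this age, -0.50 and -0.66.

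LiSel1lKO replicates 3 and 4 carried most of this shift. The mean deviation of the 10 genes from the 3-week wildtype mean was -0.10, -0.02, -0.56 and -0.30 in LiSel1lKO replicates 1 to 4, against -0.16, -0.02 and 0.18 in the wildtype livers. These 2 livers were the lowest of the 7 in Ppara, Cpt1a, Hadha, Hadhb, Ehhadh and Acaa1b, 6 of the 10 genes, as in 10.2% of all genes, which was noticed after the values were seen. As both were picked for their low values, leaving them out raises the LiSel1lKO means of 3 weeks by that choice. Values without them, here and in later paragraphs, are therefore descriptions only. With both left out, the median difference was -0.04, with 6 of the 10 genes below 0. Hadhb then differed by -0.22, Acaa1b by -0.27 and Ehhadh by -0.32, Ppara by 0.07, and 0 of the 10 passed.

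Markers of other cells are given beside these values, and none of them passed the test at 3 weeks. In bulk liver RNA, fewer cells of a type and less RNA per cell cannot be told apart. The summed linear level of the 6 Kupffer cell markers was 1109 to 1429 in LiSel1lKO livers at 3 weeks, against 1530 to 1698 in wildtype livers, and all 6 had differences below 0. The 2 measured erythroid markers of 5 listed summed to 72.3 to 148.8 in LiSel1lKO livers, against 149.5 to 273 in wildtype livers. The 6 hepatocyte markers summed to 42246 to 43226 in LiSel1lKO livers and 40554 to 41754 in wildtype livers, the 5 endothelial markers to 1444 to 1783 and 1728 to 1924, and the 5 stellate markers to 1679 to 2189 and 2019 to 2246. No marker was listed at 0, and the part of these cells in the differences was not tested.

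**Figure D2:**
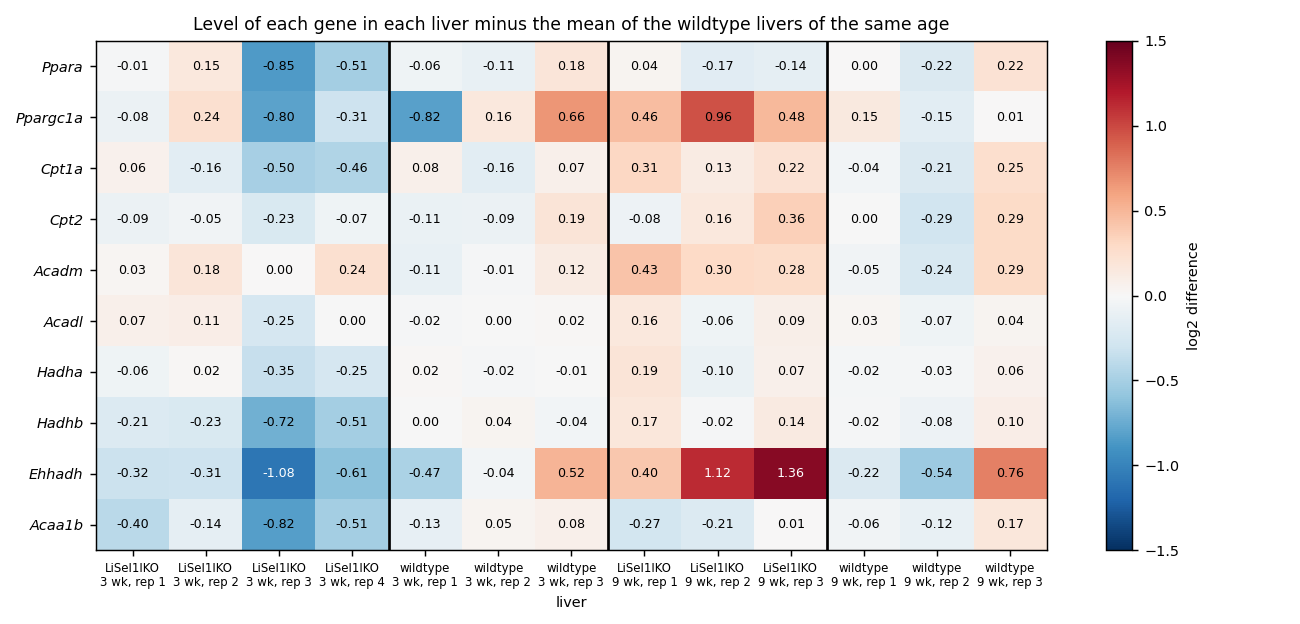
Log2 level of each gene (rows) in each liver (columns) minus the mean of the wildtype livers of the same age, with blue below and red above that mean. LiSel1lKO replicates 3 and 4 at 3 weeks are blue in most rows, and the 9-week LiSel1lKO livers are red for Ehhadh, Ppargc1a and Acadm.

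The same comparison at 9 weeks gave another picture. Here 8 of the 10 genes were higher on average in LiSel1lKO livers, with a median of 0.12, against -0.008 over all genes. Ehhadh differed by 0.96 ± 0.37 (SE; 1.95-fold; 95% interval 0.14 to 1.78; adjusted p = 0.266), Ppargc1a by 0.63 ± 0.34 (1.55-fold; -0.12 to 1.39; adjusted p = 0.455) and Acadm by 0.34 ± 0.13 (1.26-fold; 0.05 to 0.62; adjusted p = 0.258). None of the 10 passed the test, which called 1.52% of all features at this age, and 2 of them had an unadjusted p under 0.05, against 15.8% of genes. Ppargc1a was higher in every LiSel1lKO than in every wildtype liver, as were 11.4% of all genes, a share that makes 1 of 10 no result about these genes.

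The other genes had smaller differences at 9 weeks, and with 3 livers per group none of them was shown to equal wildtype. Cpt1a differed by 0.22 ± 0.16, Cpt2 by 0.15 ± 0.15, Hadhb by 0.10 ± 0.13, Acadl by 0.06 ± 0.10 and Hadha by 0.06 ± 0.11. Ppara itself differed by -0.09 ± 0.23 (95% interval -0.58 to 0.41) and Acaa1b by -0.16 ± 0.16 (-0.50 to 0.18). The mean deviation of the 10 genes was 0.18, 0.21 and 0.29 in the 3 LiSel1lKO livers, against -0.02, -0.20 and 0.22 in the wildtype livers, so that wildtype replicate 3 lay among the LiSel1lKO livers. That wildtype liver was the highest of its group in 9 of the 10 genes. Within position number 5, which held 1 wildtype liver, Ehhadh differed by 1.42, Ppargc1a by 0.63 and Acadm by 0.59. Within number 7, which held 1 LiSel1lKO liver, they differed by 0.85, 0.88 and 0.18. The direction of other genes varied with the position number. Within number 5 only Acaa1b lay below 0 (-0.02). Within number 7 Ppara (-0.28), Acaa1b (-0.27), Hadha (-0.12), Acadl (-0.09) and Hadhb (-0.06) lay below 0, and the rest of the 10 above it. No cell type marker passed at this age. The Kupffer marker sum was 675.7, 1579 and 1537 in LiSel1lKO replicates 1 to 3, against 1008, 1390 and 1201 in wildtype replicates, so that replicates 2 and 3 lay above and replicate 1 below every wildtype liver. The hepatocyte marker sum was 42400, 39220 and 39390 in the same LiSel1lKO livers, against 41240 to 43060 in wildtype livers. The erythroid sum was 70.4 to 112.5 in LiSel1lKO and 131.3 to 236.4 in wildtype livers, and the part of these cells was not tested.

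**Figure D3:**
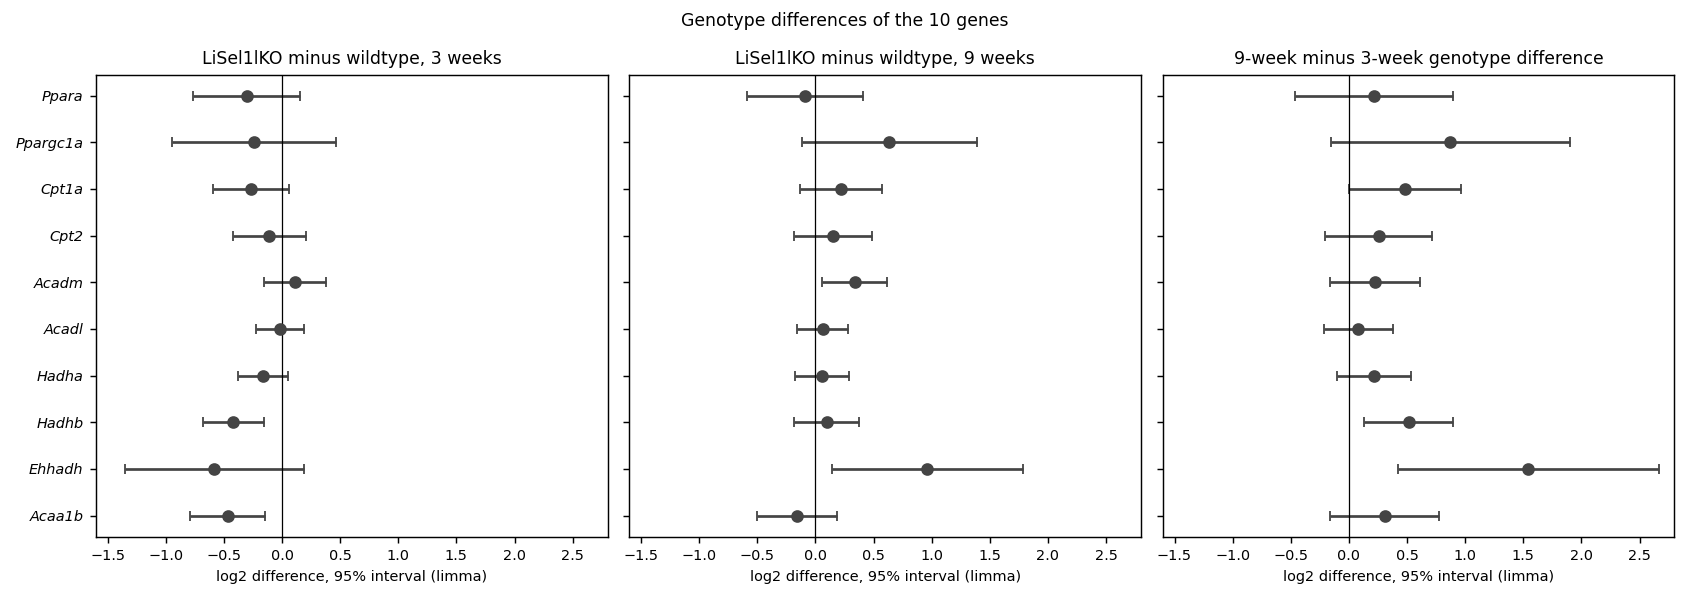
Log2 difference between LiSel1lKO and wildtype livers (points) with 95% intervals from limma (bars) for the 10 genes at 3 weeks, at 9 weeks, and for the difference of the 2 differences. Most points lie below 0 at 3 weeks, most above 0 at 9 weeks, and the right panel is led by Ehhadh at 1.54.

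Whether the genotype difference itself depended on age was tested by the interaction, the 9-week difference minus the 3-week difference. It lay above 0 for all 10 genes, with a median of 0.28, against -0.002 over all genes. Ehhadh had the largest value, 1.54 ± 0.51 (SE; 95% interval 0.42 to 2.67; adjusted p = 0.383), followed by Ppargc1a (0.87 ± 0.47; adjusted p = 0.580), Hadhb (0.51 ± 0.18; 0.13 to 0.90; adjusted p = 0.395) and Cpt1a (0.48 ± 0.22; adjusted p = 0.513). The others ranged from 0.08 ± 0.14 for Acadl to 0.31 ± 0.21 for Acaa1b. None of the 10 passed, 0% of all features did, and 3459 features had an unadjusted p under 0.05. Of the 10 genes, 3 had an unadjusted p under 0.05, against 10.9% of genes. With LiSel1lKO replicates 3 and 4 of 3 weeks left out, 8 of the 10 genes lay above 0, with a median of 0.22. Ehhadh then stood at 1.28, and Ppara and Acadl lay below 0 at -0.16 and -0.03.

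Age was compared within each genotype. The 9-week and 3-week contrasts share their livers with the genotype comparisons, so the values below are given side by side and not as separate support. In wildtype livers 9 of the 10 genes were lower at 9 than at 3 weeks, with a median of -0.27, against 0.009 over all genes. Hadhb differed by -0.46 ± 0.13 (SE; 0.727-fold; adjusted p = 0.111), Ehhadh by -0.84 ± 0.37 (0.559-fold; adjusted p = 0.353), Ppargc1a by -0.77 ± 0.34 (0.587-fold; adjusted p = 0.353) and Acadl by -0.28 ± 0.10 (0.824-fold; adjusted p = 0.226). None of the 10 passed the test, which called 1.89% of features, and 4 had an unadjusted p under 0.05, against 15.1% of genes. Hadhb, Acadl and Hadha were lower in every 9-week than in every 3-week wildtype liver, as were 10.6% of all genes. When the 2 low LiSel1lKO livers of 3 weeks were left out of the fit, whose spread all groups share, the adjusted p of Hadhb in this wildtype comparison was 0.0277 (limma), and it was then the 1 member called. Those livers were picked after their low values were seen, which narrows the shared spread by choice, so this call is a description only. Within position number 5, which held 1 of the 9-week wildtype livers, Hadhb differed by -0.52 and Ehhadh by -1.40, and within number 7, which held 1 of the 3-week wildtype livers, by -0.46 and -0.53. Some markers of other cells were called lower with age in wildtype livers: 3 of 5 endothelial, 1 of 5 stellate, 1 of 6 Kupffer and 1 of 2 measured erythroid markers. The other erythroid marker, Alas2, had a mean of 7.45 at 9 weeks against 7.27 at 3 weeks. Of the lymphocyte markers 3 of 4 lay above 0, as did 3 of 4 bile duct markers, and none of these was called. The endothelial sum was 1367 to 1507 at 9 weeks against 1728 to 1924 at 3 weeks, and the stellate sum 1465 to 1865 against 2019 to 2246. The hepatocyte sum was 41240 to 43058 against 40554 to 41754, and the part of these cells was not tested.

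In LiSel1lKO livers most differences with age lay above 0. There 8 of the 10 genes were higher on average at 9 than at 3 weeks, with a median of 0.14. Ehhadh differed by 0.70 ± 0.35 (SE; adjusted p = 0.551), Acaa1b by 0.26 ± 0.15 and Ppara by 0.24 ± 0.21, whereas Acadl lay below 0 as in wildtype livers (-0.20 ± 0.09; adjusted p = 0.516). None of the 10 passed, 0.155% of features did, and 0 of the 10 had an unadjusted p under 0.05, against 12.0% of genes. This picture also rested on LiSel1lKO replicates 3 and 4 of 3 weeks. Without them the median was -0.04, and 7 of the 10 genes lay below 0. The difference in age effect between genotypes is the interaction given above, and it did not pass for any of the 10.

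The wider pathway was read from 8 lists of other genes, of which those with a 1-symbol feature were measured. The target list holds a few genes that also stand in the peroxisomal, carnitine and omega-oxidation lists. The list named mitochondrial also holds genes whose enzymes lie elsewhere, such as the peroxisomal Nudt7. The activation and carnitine list also holds Acaca and Acacb, whose enzymes make malonyl-CoA and take neither of these steps. Both were lower on average in LiSel1lKO livers at 3 weeks, Acaca with means of 8.39 against 9.15. At 3 weeks 0 members of any list passed. The median difference was -0.36 for 20 other PPARalpha target genes (16 below 0). It was -0.34 for the 13 genes of the activation and carnitine list, Acaca and Acacb included (10 below 0). It was -0.08 for 17 genes of the peroxisomal list (10 below 0) and -0.02 for 17 genes of the mitochondrial list (12 below 0). For 5 genes of omega-oxidation it was -0.13, for 2 of ketone body synthesis -0.06, for 16 PPAR relatives, RXR partners and coregulators -0.04, and for 13 PGC-1alpha partners and targets -0.05. LiSel1lKO replicates 3 and 4 were the lowest of the 7 livers of 3 weeks in 15 of the 20 targets and 7 of the 13 activation genes, as in 10.2% of all genes. The same held for 5 of 17 genes in the mitochondrial and in the peroxisomal list, 5 of 16 coregulators and 3 of 13 PGC-1alpha genes. It also held for 2 of 5 omega-oxidation and 1 of 2 ketone body genes. Without these 2 livers the median was -0.04 for the targets, -0.12 for the activation list, -0.07 for the peroxisomal and -0.03 for the mitochondrial list. It was then -0.02 for the omega-oxidation list, 0.06 for the ketone body list, -0.02 for the coregulators and 0.07 for the PGC-1alpha list. The smallest p values belonged to Acot12 (-0.27 ± 0.09, SE) and Acot3 (-1.16 ± 0.50), both acyl-CoA thioesterases, Acacb (-1.01 ± 0.36), which makes the Cpt1a inhibitor malonyl-CoA, and Acsl5 (-0.34 ± 0.13), an acyl-CoA synthetase. In the peroxisomal list they belonged to the transporter Abcd3 (-0.38 ± 0.11) and Scp2 (-0.43 ± 0.15), and in the mitochondrial list to Acadsb (0.48 ± 0.13) and Eci1 (-0.26 ± 0.12). The other lists were led by Aldh3a2 (-0.22) and Cyp4f14 (0.22), Bdh1 (-0.15) and Acat1 (0.03), Lpin1 (-0.72) and Nrip1 (-0.27), and G6pc (-0.71) and Gabpa (0.20). Adjusted p values of all these genes lay at 0.439 or above.

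At 9 weeks 5 of the 100 measured list genes passed the test, which called 1.52% of all features. Many of these features are dim (median of their means 3.76), so this share is no like measure for brighter genes. When only features above the median mean were fitted, 859 were called, against 539 in the main fit. Among the other PPARalpha targets 2 of 20 rose and 17 of 20 lay above 0, as did 48.2% of all genes, and the median was 0.43. Cd36, a fatty acid transporter of the cell surface, was at 7.70, 8.60 and 8.34 in LiSel1lKO livers, against 6.75, 6.31 and 6.65 in wildtype livers (3.12-fold; adjusted p = 0.0121). Acot2, a mitochondrial thioesterase, was at 10.39, 11.59 and 12.13 in LiSel1lKO livers, against 8.88, 8.95 and 9.63 in wildtype livers (4.64-fold; adjusted p = 0.0486). Neither gene overlapped between genotypes. At this age 11.4% of all genes were likewise higher in every LiSel1lKO than in every wildtype liver. Cd36 held its call in 19 of 23 alternative fits and Acot2 in 5 of 23. Cd36 lost it without wildtype replicate 2, LiSel1lKO replicate 2 or LiSel1lKO replicate 3 of 9 weeks. Fits without a liver outside the comparison could not change the difference, so such counts, here and below, are no measure of stability. Fgf21 was not called and is named here after its values were seen, because its 9-week means lay furthest apart among these targets. It stood at 8.90 ± 0.14 (SD, n = 3) in LiSel1lKO livers, against 5.94 ± 0.64 (n = 3) in wildtype livers, without overlap. At 3 weeks its LiSel1lKO livers ranged from 5.96 to 9.30. Why Fgf21 was not called was not tested.

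In the peroxisomal list 1 of 17 rose and 1 fell. Hao2, a peroxisomal oxidase of 2-hydroxy acids, was at 3.89, 4.96 and 5.10 in LiSel1lKO livers and 2.40, 2.85 and 2.28 in wildtype livers (4.39-fold; adjusted p = 0.0121). The wildtype levels lay under the array medians, so the fold is a lower bound where they are background. Ephx2, the soluble epoxide hydrolase, fell by 0.54 on the log2 scale (0.686-fold; adjusted p = 0.0497). In the mitochondrial list 1 of 17 fell, Nudt7, which encodes a peroxisomal hydrolase of coenzyme A and no mitochondrial enzyme. It was at 9.31, 8.11 and 9.22 in LiSel1lKO livers, against 10.48, 10.58 and 10.44 in wildtype livers (0.325-fold; adjusted p = 0.0363). The calls of Hao2, Nudt7 and Ephx2 held in 20, 13 and 6 of 23 alternative fits, and none of the 5 genes passed when the 6 livers of 9 weeks were fitted alone, where 1 feature in all was called.

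No member of the other 5 lists passed at 9 weeks. Their medians were -0.01 for activation and carnitine shuttle, 0.31 for omega-oxidation, 0.09 for ketone body synthesis, -0.08 for PPAR relatives and coregulators and -0.08 for PGC-1alpha partners and targets. Nearest to the threshold stood Pparg, the lipid-storage relative of PPARalpha (0.83 ± 0.19, SE; adjusted p = 0.0551; called in 4 alternative fits, with adjusted p values of 0.0253 to 0.0496), and the coactivator subunit Med1 (0.30 ± 0.08; adjusted p = 0.0945). Next were Acsm1 (-0.47 ± 0.13) and Acsm5 (-0.51 ± 0.15), acyl-CoA synthetases of medium chains, and the omega-oxidation enzymes Cyp4a14 (0.97 ± 0.27) and Cyp4f14 (-0.66 ± 0.21), with adjusted p values of 0.108 to 0.162. These 4 genes passed without LiSel1lKO replicate 1 of 9 weeks, with adjusted p values of 0.0245 (Acsm1), 0.00638 (Acsm5), 0.0326 (Cyp4a14) and 0.0131 (Cyp4f14). Bdh1 (0.12), Acat1 (0.07), Cox4i1 (-0.18) and Gabpa (0.22) led the last 2 lists.

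**Figure D4:**
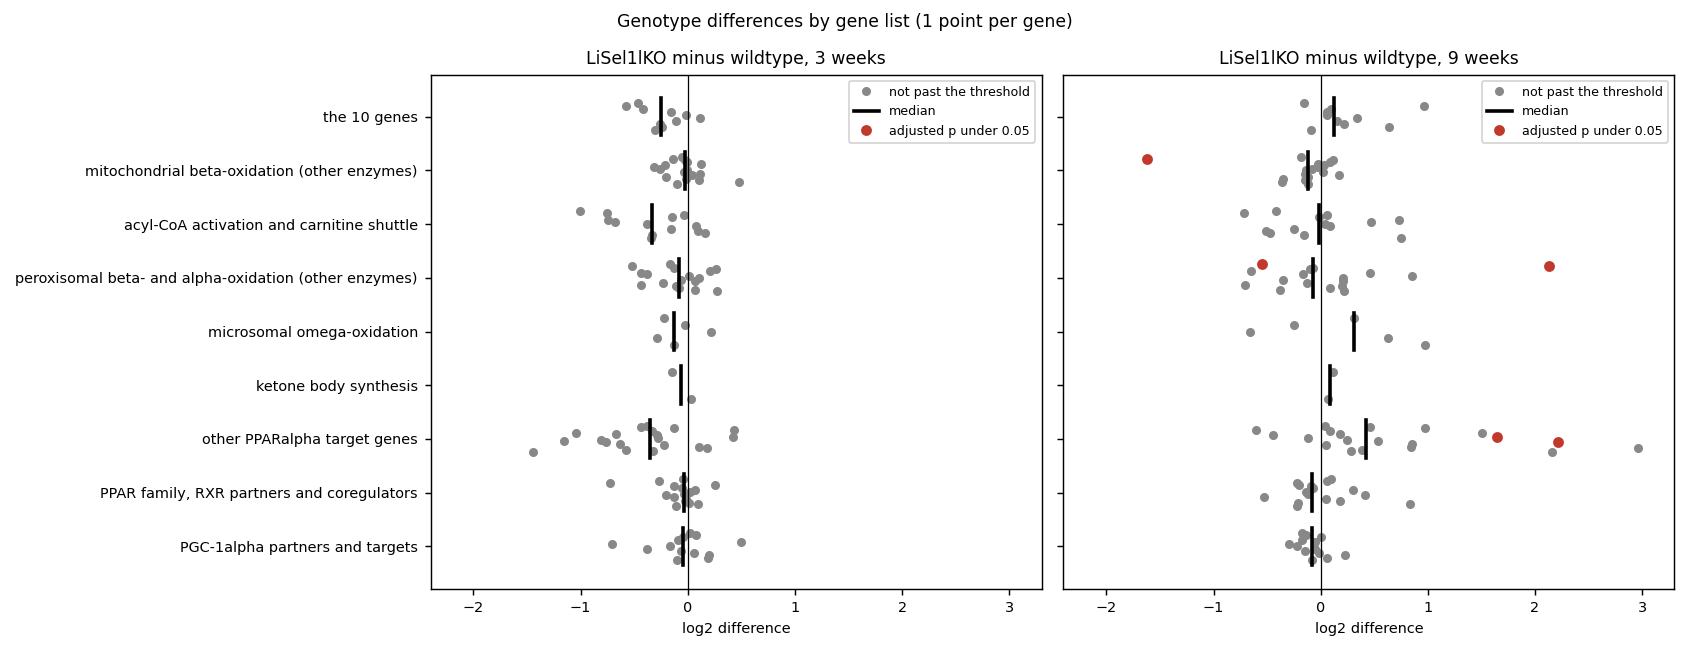
Log2 differences between LiSel1lKO and wildtype livers (x axis) at 3 weeks and 9 weeks, with 1 point per measured gene of the 10 genes and of each list, the list median as a bar, and genes with adjusted p under 0.05 in red. At 3 weeks no point is red, and at 9 weeks Cd36, Acot2 and Hao2 are red on the right and Nudt7 and Ephx2 on the left.

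For the interaction 0 members of any list passed. The largest median was that of the other PPARalpha targets, 0.93, with 18 of 20 above 0, against 49.8% of all genes. Without LiSel1lKO replicates 3 and 4 of 3 weeks this median was 0.43, with 17 of 20 above 0. Ranked by p value (limma) and not by size, the list was led by Acot2 (2.98 ± 0.65, SE) and Cidec, a lipid droplet protein (2.54 ± 0.67). Their adjusted p values were 0.228 and 0.290. Hao2 (2.66 ± 0.40; adjusted p = 0.107; uncertain in size because its 9-week wildtype levels lay under the array medians) and Pecr (-0.85 ± 0.26) led the peroxisomal list, Acadsb (-0.84 ± 0.19) and Nudt7 (-1.48 ± 0.44) the mitochondrial list, and Acsm1 (-0.63 ± 0.18) and Acsl4 (1.09 ± 0.33) the activation list. Pparg stood at 0.74 ± 0.26 and Cyp4a14 at 1.10 ± 0.36. Cyp4f14 stood at -0.88 ± 0.28. The remaining leaders were Bdh1 (0.26), Acat1 (0.04), Med1 (0.23), Ndufs1 (-0.22) and Cox4i1 (-0.20), and adjusted p values of all the genes named here were 0.107 or above. The medians were -0.01 for the mitochondrial, 0.14 for the activation, 0.11 for the peroxisomal, 0.53 for the omega-oxidation, 0.15 for the ketone body, 0.05 for the coregulator and -0.08 for the PGC-1alpha list.

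With age in wildtype livers 7 of the 100 measured list genes passed, against 1.89% of all features, the many dim ones included. Hao2 fell to 2.40, 2.85 and 2.28 at 9 weeks, against 7.83, 7.91 and 7.43 at 3 weeks (log2 difference -5.21 ± 0.29, SE; adjusted p = 3.55e-05), and the size of this difference is a lower bound where the 9-week levels are background. Nudt7 rose, with 10.48, 10.58 and 10.44 at 9 weeks against 8.85, 7.96 and 8.43 at 3 weeks (2.09 ± 0.32; adjusted p = 0.00941). These 2 calls held in 23 of 23 alternative fits. The peroxisomal genes Scp2 (0.91 ± 0.16; adjusted p = 0.0192) and Acox3 (0.76 ± 0.16; adjusted p = 0.0372) also rose, as did Acadsb, which acts on short branched chains (0.69 ± 0.14; adjusted p = 0.0337). With the mean of all 1-symbol features of Acox3 in place of the brightest, its difference was 0.34 (adjusted p = 0.209). The peroxisomal transporter Abcd2 (-2.10 ± 0.43; adjusted p = 0.0351) and Pparg (-0.96 ± 0.19; adjusted p = 0.0272) fell. These 5 calls held in 18, 11, 15, 9 and 16 of 23 fits in the order given. In lists with no call, the genes with the smallest p were Cyp4a14 (-1.04), Cyp4a31 (-0.89), Acot2 (-1.53), Crat (-0.84), Acsl5 (-0.44), Bdh1 (-0.53), Acat1 (-0.32), Nr0b2 (1.03) and Tfam (-0.18), with adjusted p values of 0.0813 or above. The medians ran from -0.42 for ketone body synthesis to 0.05 for the PGC-1alpha list.

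In LiSel1lKO livers of 9 against 3 weeks, Hao2 alone of the 100 list genes passed, with 3.89, 4.96 and 5.10 at 9 weeks against 7.54, 7.18, 6.94 and 7.12 at 3 weeks (-2.55 ± 0.27; adjusted p = 0.00728). There 19 of 20 other PPARalpha targets lay above 0, as did 50.9% of all genes, with a median of 0.67. Without LiSel1lKO replicates 3 and 4 of 3 weeks 15 of 20 did, with a median of 0.22. Ranked by p value (limma) and not by size, the list was led by Vnn1 (1.10 ± 0.25) and Cidec (1.85 ± 0.45). Their adjusted p values were 0.134 and 0.163. In wildtype livers the same list had 9 of 20 above 0 and a median of -0.16. The other lists had medians from -0.27 (ketone body synthesis) to 0.06 (omega-oxidation) in LiSel1lKO livers. Their leading genes were Acsl4 (0.88), Aldh3a2 (0.42), Echs1 (-0.43), Acsm1 (-0.36), Ndufs1 (-0.35), Cyp4f14 (-0.33), Etfa (-0.29), Acat1 (-0.28), Bdh1 (-0.26), Tfam (-0.26), Med1 (0.15) and Ep300 (0.15), none of which passed.

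The genes whose pattern over the 13 livers was most like that of the 10 were sought among 5961 other genes with a mean of at least 6, by the root mean square difference of centred log2 values. Nearest to the mean of the 10 were Tmem82 (0.091), Safb (0.109), Gmps (0.114), Sik3 (0.114), Chp1 (0.115) and Atp6v0a2 (0.115), against an SD of 0.208 of that mean. Nearest to Ehhadh were Igfbp1, a secreted binder of insulin-like growth factors (0.299), the lipid droplet coat protein Plin2 (0.301) and Hsdl2 (0.307). Nearest to Ppargc1a were the monocarboxylate transporter Slc16a7 (0.269), the omega-hydroxylase Cyp4a31 (0.279) and Grpel2 (0.289), and nearest to Ppara were the transcription factor Cebpb (0.111), Vwa8 (0.131) and Tor1b (0.135). Plin2, for example, stood at 10.66, 11.25 and 11.56 in LiSel1lKO livers at 9 weeks, against 10.63, 10.45 and 11.22 in wildtype livers. At 3 weeks it stood at 10.79, 10.76, 10.09 and 10.07 in LiSel1lKO livers, against 10.72, 10.80 and 11.48 in wildtype livers. These likenesses describe these livers only, and all genes of a liver share its array.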

How the data were processed

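Total RNA of 13 livers was measured on whole-transcript Affymetrix arrays. The values are the authors' deposited log2 expression levels, made by RMA per the submitters' processing notes; the software version and probe set definition are not given in the sources used here. RMA quantile-normalizes the arrays, so a shift common to most genes is largely removed. Symbols came from the platform annotation: 21218 of 35556 had 1 symbol, and the brightest per gene was used. A linear model with 1 mean per group was fitted to all features and 13 livers with limma 3.58.1 (R 4.3.3; lmFit and eBayes; tests were two-sided). Benjamini-Hochberg adjustment ran across the whole array, and features with adjusted p under 0.05 were called. The fit was tested on simulated data. Replicate numbers did not pair the livers and no block was fitted in the model reported. Alternatives left out each liver or both low livers and changed the scaling, features, moderation, block and samples fitted. The members and lists were chosen with earlier results of these data known. Named were all 10 members, each list's called genes, otherwise its 2 with the smallest p plus the genes nearest in pattern. Fgf21 and Pdk4, outside this rule, were named after their values were seen. List genes without a 1-symbol feature were not analysed here. The number of livers limits the precision. Of sequences, promoter windows came from RefSeq (GRCm38.p6) and all 10 genes matched; no array build is named, so no gene coordinates are given.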

Additional observations from a re-analysis of the deposited data

Results flagged for a closer look

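In Ehhadh and 7 of the list genes named here, every LiSel1lKO liver lay on one side of the wildtype mean at 3 weeks and on the other side at 9 weeks. The list genes were named for their small p values, so their count is a description only. The pattern held in 12 of all 100 measured list genes and in 7.99% of all genes. The interaction tested this difference, and none of the 8 passed (limma). Ehhadh had an interaction of 1.54 (log2; adjusted p = 0.383), Acot2 of 2.98 (adjusted p = 0.228), Cidec of 2.54 (adjusted p = 0.290), Hao2 of 2.66 (adjusted p = 0.107), Crat, a carnitine acyltransferase, of 1.48 (adjusted p = 0.366) and Acsl4 of 1.09 (adjusted p = 0.345), all below wildtype at 3 weeks and above it at 9 weeks. Acadsb (-0.84; adjusted p = 0.241) and Acsm1 (-0.63; adjusted p = 0.314) ran the other way. The Hao2 interaction passed without LiSel1lKO replicate 1 of 9 weeks (adjusted p = 0.00752) and with features of 1 symbol only (adjusted p = 0.0321).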

How the results depend on the processing

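Of 1150 values of the 10 genes under alternatives, 1124 kept direction and side of the threshold and 25 turned direction. Leaving out a liver outside a comparison, or changing the moderation or the set of features tested, could not turn a difference. The share that kept direction is therefore no measure of stability, and neither are the counts of fits in which list genes kept a call. The 1 value that passed was Hadhb in wildtype ageing without LiSel1lKO replicates 3 and 4 of 3 weeks (limma adjusted p = 0.0277), a setting chosen after seeing the data. That setting gave 1 member called there, a 3-week median of -0.037 and 279 features called at 9 weeks. In it turned at 3 weeks Ppara (0.070), Ppargc1a (0.081), Acadl (0.090) and Bdh1 (0.076), in the interaction Ppara (-0.16) and Acadl (-0.027), and with age in LiSel1lKO livers Ppara (-0.14), Ppargc1a (-0.22), Cpt1a (-0.021), Hadha (-0.048) and Hadhb (-0.14). Leaving out 1 liver at a time, values that turned ranged at 3 weeks from -0.65 to 0.092 (Ppargc1a), -0.061 to 0.059 (Acadl), -0.29 to 0.00090 (Bdh1) and -0.080 to 0.11 (Acat1), at 9 weeks from -0.20 to 0.020 (Ppara), -0.012 to 0.13 (Hadha), -0.0064 to 0.14 (Acat1) and -0.030 to 0.21 (Bdh1), in the interaction from -0.049 to 0.15 (Acat1), in wildtype ageing from -0.085 to 0.13 (Ppara), -0.23 to 0.065 (Cpt2) and -0.14 to 0.0074 (Acaa1b), and in LiSel1lKO ageing from -0.085 to 0.27 (Ppargc1a), -0.048 to 0.12 (Hadhb) and -0.081 to 0.0088 (Acadm). Features called then ranged from 0 to 1 at 3 weeks, 18 to 1178 at 9 weeks, 0 to 36 for the interaction, 296 to 639 in wildtype and 6 to 210 in LiSel1lKO ageing, so the calls of list genes depend on single livers. At 9 weeks they were 1178, 30 and 18 without LiSel1lKO replicates 1, 2 and 3 of that age, 140, 80 and 219 without wildtype replicates 1, 2 and 3, and 352, 359 and 317 without LiSel1lKO replicates 1, 2 and 4 of 3 weeks. The medians of the 10 genes ranged from -0.35 to -0.11 at 3 weeks, 0.05 to 0.22 at 9 weeks, 0.20 to 0.40 for the interaction, -0.35 to -0.16 in wildtype and 0.04 to 0.21 in LiSel1lKO ageing. The main counts were 0, 539, 0, 672 and 55. With only the groups compared they were 1 at 9 weeks, 255 and 9 in wildtype and LiSel1lKO ageing. With 1-symbol features they were 2 at 3 weeks, 15 for the interaction and 144 in LiSel1lKO ageing, with brighter features 859 at 9 weeks and 109 in LiSel1lKO ageing, with the position number 294 and 18, and with centred medians 35 in LiSel1lKO ageing. The replicate numbers, taken from the titles (the array descriptions number the 9-week replicate 3 livers of both genotypes 4), did not pair the livers: same-numbered livers of the 2 genotypes correlated in their deviations between -0.011 and 0.071. As a replicate block they gave 184, 440 and 12 features at 9 weeks and in wildtype and LiSel1lKO ageing, turned Acadm in LiSel1lKO ageing (0.0088) and called 0 of the 10. For the list genes, 100 of 1778 values lost a call, 13 gained one and 8 turned. The gains were those of Pparg, Acsm1, Acsm5, Cyp4a14 and Cyp4f14 at 9 weeks, of Hao2 in the interaction, and in wildtype ageing of Cyp4a14 (adjusted p = 0.0404 with 1-symbol and 0.0466 with brighter features) and of Crat without the 2 low livers (adjusted p = 0.0421). The causes were not tested.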

Other observations

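Pdk4, a PPARalpha target whose kinase keeps pyruvate out of oxidation, is named here after its values were seen, because it varied more between livers of 1 group than any of the 10 genes. It stood at 7.74, 9.49, 5.93 and 5.68 in 3-week LiSel1lKO livers, against 6.76, 9.52 and 9.68 in wildtype livers, and at 6.87, 9.35 and 10.36 in 9-week LiSel1lKO livers, against 6.31, 5.48 and 8.32 in wildtype livers. The within-group SDs were 1.78, 1.64, 1.79 and 1.46 in that order of groups. The genotypes overlapped at both ages. LiSel1lKO replicates 3 and 4 of 3 weeks, low in most of the 10 genes, were also lowest here among the livers of that age, and wildtype replicate 3 of 9 weeks was again the highest of its group.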
